A study of Mus musculus with 6 samples.

Results

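The 9 genes described here encode digestive enzymes anchored in the microvillus membrane of intestinal absorptive cells. They comprise 4 disaccharidases (Lct, Sis, Mgam and Treh), 4 peptidases (Anpep, Enpep, Dpp4 and Xpnpep2) and the intestinal alkaline phosphatase Alpi. They were chosen by gene symbol, and all 9 were found among the 20594 rows of the expression table. RNA was measured in colon of 3-week-old C57BL/6J mouse offspring, in 3 control libraries from dams given 0% dextran sulfate sodium (DSS, a sulfated polysaccharide that injures the colon lining) and in 3 maternal DSS libraries from dams given 1.5% DSS. The labels date the exposure of both groups of dams from embryonic day 13 to 19, whereas the design text speaks of 5 days. The labels report no DSS given to the offspring, and they name no dam, litter or sex. Their titles speak of several offspring, so a library may be 1 animal or a pool. The p-values therefore speak only of how these libraries differ, and some of that may be technical.

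Brush border hydrolases carry out the last step of digestion at the cell surface, where they release monosaccharides, amino acids and short peptides next to the transporters that take them up. Most are enzymes of the small intestine, and several are also made by colon epithelium at lower levels. In rodents the small intestine switches at weaning from lactase, which splits milk sugar, to sucrase-isomaltase and trehalase, which split sugars of solid food. This switch is why the lactase transcript is set against the sucrase-isomaltase transcript in offspring of this age.

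The 250 bases before the RefSeq start of 4 of these genes are shown because Lct and Sis form the weaning pair and Anpep and Enpep had the largest log2 fold changes of the 7 genes that could be tested. Each is written 5′ to 3′ on the strand of its gene, from RefSeq on GRCm38.p6 (the assembly that mm10 names). Capitals mark 2 searched strings on either strand: TTTAT, the core bound by Cdx homeodomain factors, and GATAA, bound by GATA factors.
Lct, chr1:128328319-128328568, minus strand: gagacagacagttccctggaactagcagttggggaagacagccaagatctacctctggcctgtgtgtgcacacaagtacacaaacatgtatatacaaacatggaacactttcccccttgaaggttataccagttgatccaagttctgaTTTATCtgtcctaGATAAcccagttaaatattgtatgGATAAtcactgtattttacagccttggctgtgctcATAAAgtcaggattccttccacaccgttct
Sis, chr3:72967864-72968113, minus strand: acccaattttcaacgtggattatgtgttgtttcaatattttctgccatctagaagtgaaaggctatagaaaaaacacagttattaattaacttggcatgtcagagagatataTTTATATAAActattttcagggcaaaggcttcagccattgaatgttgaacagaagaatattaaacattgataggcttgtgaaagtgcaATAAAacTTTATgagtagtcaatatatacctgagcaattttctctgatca
Anpep, chr7:79848211-79848460, minus strand: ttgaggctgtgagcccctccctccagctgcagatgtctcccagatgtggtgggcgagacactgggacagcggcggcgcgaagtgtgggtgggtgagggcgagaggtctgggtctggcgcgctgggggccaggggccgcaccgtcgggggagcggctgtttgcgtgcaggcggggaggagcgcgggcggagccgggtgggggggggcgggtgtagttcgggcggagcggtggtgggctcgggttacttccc
Enpep, chr3:129332750-129332999, minus strand: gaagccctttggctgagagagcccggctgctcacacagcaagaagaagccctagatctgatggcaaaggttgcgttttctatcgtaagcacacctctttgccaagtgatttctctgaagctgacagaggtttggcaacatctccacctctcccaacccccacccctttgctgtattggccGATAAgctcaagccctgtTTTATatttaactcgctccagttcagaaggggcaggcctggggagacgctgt
The window of Sis held 4 matches to TTTAT, and that of Lct 2 matches to TTTAT and 3 to GATAA, of which 1 pair overlapped. That of Enpep held 1 match each to TTTAT and GATAA, and that of Anpep, with a GC content of 72.8%, held neither. Over 32851 RefSeq promoters, windows of the same length held TTTAT in 37.3% and GATAA in 22.6%, so both are common strings. All 9 genes matched a RefSeq promoter, of which 6 held TTTAT and 4 held GATAA. Only 1 window per gene was searched, so a window without a match says nothing of other start sites of that gene. A match is a description of letters and not evidence of a bound site.

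The values are FPKM, fragments sequenced per unit of transcript length, relative to the total of the library, so levels can be compared between genes. Where 3 values stand for a group, they are those of replicates 1, 2 and 3, in that order. FPKM sums ranged from 403673 to 492719 per library, between 13249 and 13739 genes reached an FPKM of 1, and read depth is unknown. The tissue label was checked against markers, with the colonocyte gene Car1 at 4528 to 7277 FPKM. Transcripts of small-intestinal enterocytes were also present, and their summed level was high in maternal DSS 2 and 3 (values are given beside the peptidases). Of 13594 genes tested with limma, 0 had a Benjamini-Hochberg adjusted p under 0.05 and 1064 an unadjusted p under 0.05.

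No gene of the 9 passed the test between maternal DSS and control offspring, but the 9 did not vary alike. On the deposited scale, the peptidases Anpep and Enpep, with Sis, Dpp4 and Xpnpep2, had their highest values in maternal DSS 2 and 3, above every control. Maternal DSS 1 did not exceed the controls for these 5. Mgam and Alpi did not follow that order, and Lct was barely detected in any library. On that scale the order is not particular to the 9 genes, since maternal DSS 2 and 3 also exceeded every control for 5 of 7 tested epithelial markers. Those libraries also had the largest FPKM sums (455557 and 492719). Log2 fold changes of the epithelial markers were positive in 6 of 7 as deposited and in 3 of 7 after TPM rescaling, where their median was -0.002. The share of all tested genes with this order was not counted, and the order was not recounted after rescaling. The filter, which asked for 3 or more libraries with an FPKM of 1 or higher, was passed by 7 of the 9 genes, and Lct and Treh stayed under it. Of the 7 tested, 0 had an adjusted p under 0.05 against 0% of all tested genes, and 0 had an unadjusted p under 0.05 against 7.83%. None of the 7 had groups that did not overlap, against 14.1% of all tested genes (4.92% higher and 9.14% lower). Log2 fold changes of FPKM + 1 (maternal DSS minus control) were positive in 6 of the 7 and had a median of 0.21, beside a median of -0.04 and a positive share of 40.3% over all tested genes. Rescaling to TPM shifted the median of all genes by -0.11, and 5 of the 7 were then positive, with a median 0.29 above that of all genes (0.24 above it as deposited).

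In controls the levels ran from Mgam (35.2 FPKM on average) through Alpi (19.2), Dpp4 (11.5), Enpep (7.54), Sis (7.1), Anpep (6.64) and Xpnpep2 (2.38) to Treh (0.215) and Lct (0.0346). The control ranges of the neighbours Alpi and Dpp4, of Enpep and Sis, and of Sis and Anpep overlapped, so these neighbours are not separated beyond their spread. Mgam was the highest of the 9 in 5 of the 6 libraries. In maternal DSS 3 Anpep was first and Mgam second, and Anpep came second in maternal DSS 2, whereas it ranked sixth in maternal DSS 1.

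**Figure D1:**
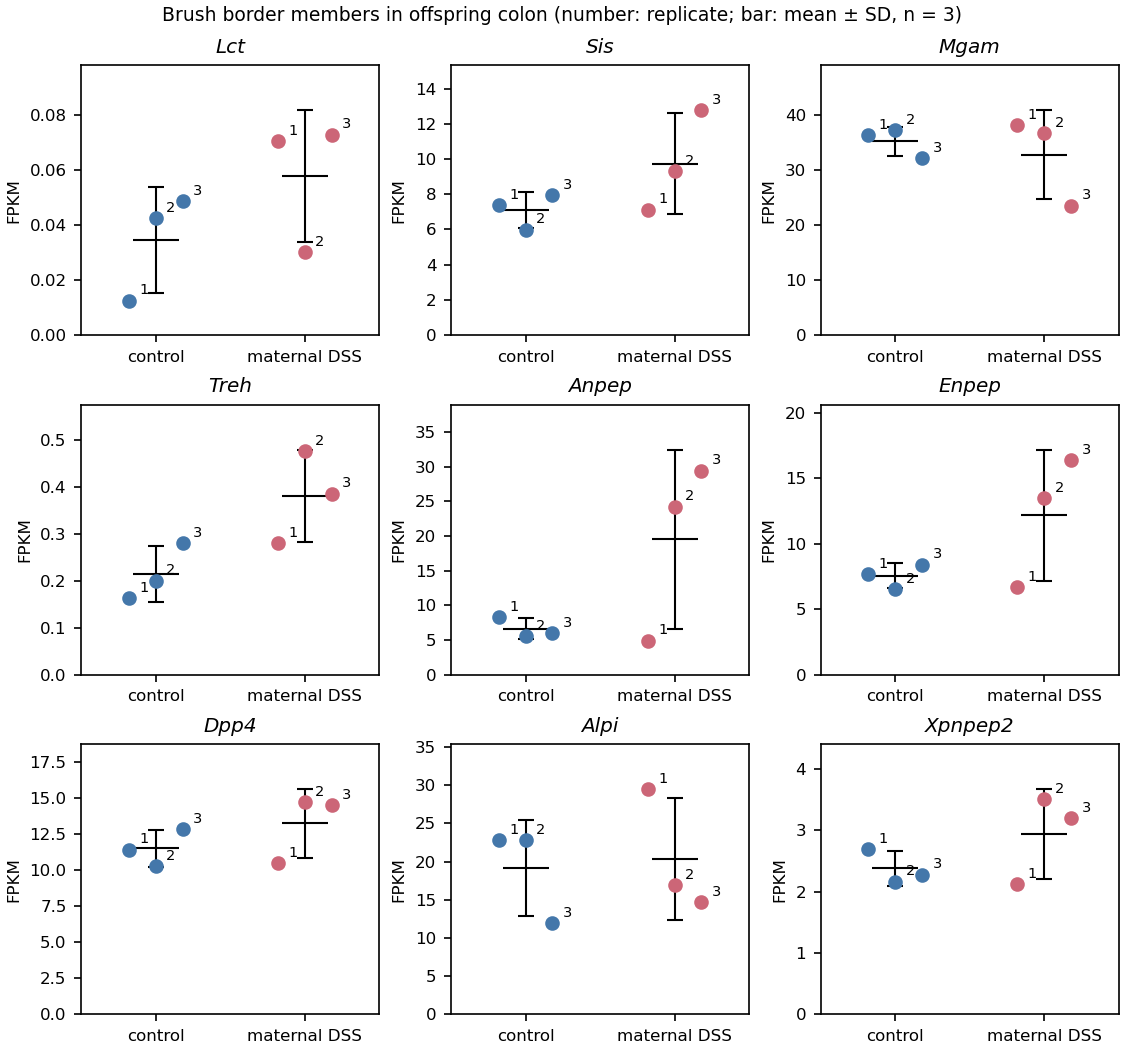
FPKM (vertical axes, each from 0) of the 9 brush border genes in 3 control and 3 maternal DSS colon libraries; points are libraries with their replicate number, and bars are the group mean ± SD. In the maternal DSS libraries Anpep had 4.93, 24.2 and 29.4 FPKM, beside 5.6 to 8.35 in controls.

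Lactase (Lct, chromosome 1, 128284756 to 128328318) hydrolyses lactose. Its transcript measured 0.0125, 0.0425 and 0.0489 FPKM in the control and 0.0705, 0.0303 and 0.073 FPKM in the maternal DSS libraries. All 6 values were under 0.1 FPKM and the groups overlapped, so a difference was not detectable at these levels. Lct was the lowest of the 9 genes in every library.

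Sucrase-isomaltase (Sis, chromosome 3, 72888557 to 72967863) splits sucrose and the branch points of starch. Sis measured 7.37, 5.99 and 7.95 FPKM in the control and 7.12, 9.32 and 12.8 FPKM in the maternal DSS libraries. Maternal DSS 2 and 3 lay above all controls and maternal DSS 1 within them. The group means were 9.74 ± 2.85 against 7.1 ± 1.01 FPKM (mean ± SD, n = 3 libraries). In limma this was a log2 fold change of 0.38 with an SE of 0.19 and a 95% interval from -0.07 to 0.83 (adjusted p = 0.62 with Benjamini-Hochberg adjustment).

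As a weaning readout, lactase amounted to 0.17%, 0.711% and 0.614% of the Sis level in the control and to 0.99%, 0.326% and 0.572% in the maternal DSS libraries. Sis thus exceeded Lct in every library of both groups, and the 2 sets of shares overlapped. On the log2 scale with 1 added to each value, the Lct to Sis ratio was -3.31 ± 0.38 in maternal DSS and -2.96 ± 0.19 in control libraries (SD, n = 3 each), a difference of -0.35 with a two-sided exact permutation p = 0.3, where the smallest possible p is 0.1. Since Lct lies far below the added 1, that ratio follows Sis almost alone. With nothing added the difference turned to 0.44 (-7.46 ± 0.8 against -7.89 ± 1.14, exact permutation p = 0.7), so the direction of the readout depended on the scale.

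Trehalase (Treh, chromosome 9, 44673233 to 44686305), which splits the fungal and insect sugar trehalose, measured 0.163, 0.2 and 0.28 FPKM in the control and 0.281, 0.477 and 0.386 FPKM in the maternal DSS libraries. The groups did not overlap, although maternal DSS 1 lay only just above control 3. All values were under 0.5 FPKM, and Treh was not tested in the fit because of the filter. Without the filter its log2 fold change on FPKM + 1 was 0.18 (SE 0.06, adjusted p = 0.68 in limma with Benjamini-Hochberg adjustment). Relative to Sis it stood at 2.21% to 3.53% in controls and 3.02% to 5.12% in maternal DSS libraries, ranges that overlapped.

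Maltase-glucoamylase (Mgam, chromosome 6, 40628831 to 40769123) releases glucose from starch fragments and is a relative of Sis, with 68.8% identity over the aligned part of their longest annotated transcripts. Mgam measured 36.2, 37.1 and 32.1 FPKM in the control and 38.1, 36.6 and 23.5 FPKM in the maternal DSS libraries. Maternal DSS 3 lay below all controls and was the highest library for Sis, maternal DSS 2 lay within the controls, and maternal DSS 1 lay just above them. The log2 fold change was -0.13 (SE 0.18, 95% interval -0.54 to 0.29, adjusted p = 0.8 in limma) and turned to 0.088 without maternal DSS 3. Sis amounted to 16.1% to 24.8% of Mgam in controls and to 18.7%, 25.4% and 54.3% in maternal DSS 1, 2 and 3.

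**Figure D2:**
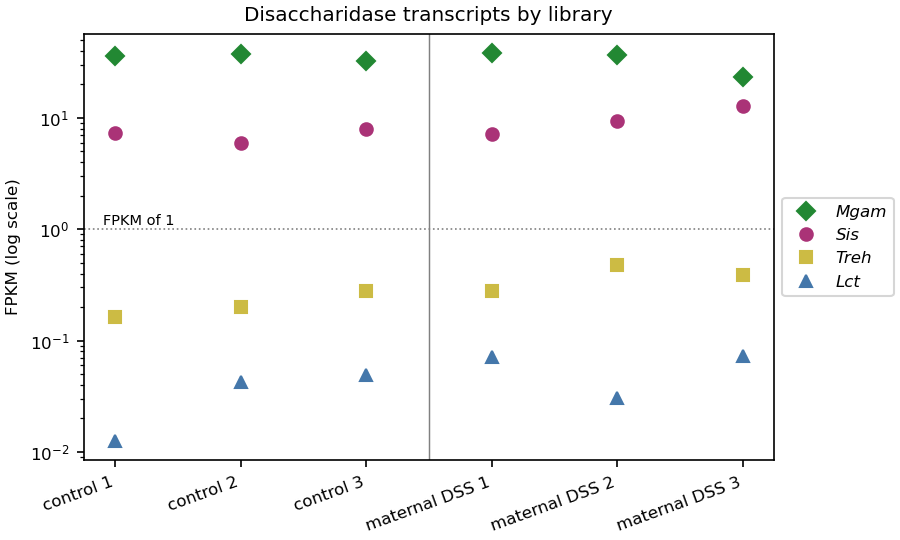
FPKM on a log axis (vertical) of the 4 disaccharidase genes in each of the 6 libraries (horizontal); the dotted line marks an FPKM of 1. Mgam and Sis lie above the line in every library, and Treh and Lct below it, with Lct under 0.1 FPKM throughout.

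Aminopeptidase N (Anpep, also known as CD13; chromosome 7, 79821803 to 79848210) cleaves neutral residues from the amino end of peptides. Anpep measured 8.35, 5.6 and 5.98 FPKM in the control and 4.93, 24.2 and 29.4 FPKM in the maternal DSS libraries. Maternal DSS 2 and 3 were far above all controls, and maternal DSS 1 was below all of them, so the groups overlapped. The means were 19.5 ± 12.9 against 6.64 ± 1.49 FPKM (mean ± SD, n = 3 libraries). In limma this was a log2 fold change of 1.13 with an SE of 0.57 and a 95% interval from -0.20 to 2.46 (adjusted p = 0.62).

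Aminopeptidase A (Enpep, chromosome 3, 129269177 to 129332749) cleaves acidic residues and also acts on angiotensin peptides. Enpep measured 7.69, 6.53 and 8.4 FPKM in the control and 6.65, 13.5 and 16.4 FPKM in the maternal DSS libraries. Maternal DSS 2 and 3 were above all controls, as for Anpep, and maternal DSS 1 lay inside the control range. The log2 fold change in limma was 0.55 ± 0.28 (SE), with a 95% interval from -0.11 to 1.21 (adjusted p = 0.62).

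Dipeptidyl peptidase 4 (Dpp4, also known as CD26; chromosome 2, 62330073 to 62412315) removes dipeptides after proline or alanine and inactivates incretin hormones. Dpp4 measured 11.4, 10.3 and 12.9 FPKM in the control and 10.5, 14.7 and 14.5 FPKM in the maternal DSS libraries (limma: log2 fold change 0.18 ± 0.14 SE, adjusted p = 0.68). The membrane aminopeptidase P gene Xpnpep2 (chromosome X, 48106913 to 48136982), whose product cleaves before proline, measured 2.7, 2.16 and 2.28 FPKM in the control and 2.12, 3.5 and 3.2 FPKM in the maternal DSS libraries (limma: log2 fold change 0.21 ± 0.15 SE, adjusted p = 0.66). For both, maternal DSS 2 and 3 were above all controls as deposited, and maternal DSS 1 lay within the control range for Dpp4 and just below it for Xpnpep2. After TPM rescaling the log2 fold change of Dpp4 was 0.075 and that of Xpnpep2 0.15.

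Whether Anpep passed the test depended on maternal DSS 1. Without that library, 1 of the 7 tested genes had an adjusted p under 0.05, which was Anpep (limma: log2 fold change 1.88 ± 0.16 SE, adjusted p = 0.017), against 0.0883% of all tested genes called higher. Enpep then had a log2 fold change of 0.90 (adjusted p = 0.12) and Sis 0.57 (adjusted p = 0.15). An unadjusted p under 0.05 was then reached by 5 of the 7 tested genes, all higher (Anpep, Enpep, Sis, Dpp4 and Xpnpep2), against 7.73% of all tested genes called higher and 17% called lower. These 5 are the genes already described by maternal DSS 2 and 3 lying above all controls and maternal DSS 1 not. Leaving out maternal DSS 1 favours such calls, that of Anpep included, so they are not separate support for a difference. Without maternal DSS 3 the log2 fold changes of Anpep, Enpep and Sis were 0.70, 0.31 and 0.18, and without maternal DSS 2 those of Anpep and Enpep were 0.83 and 0.44.

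**Figure D3:**
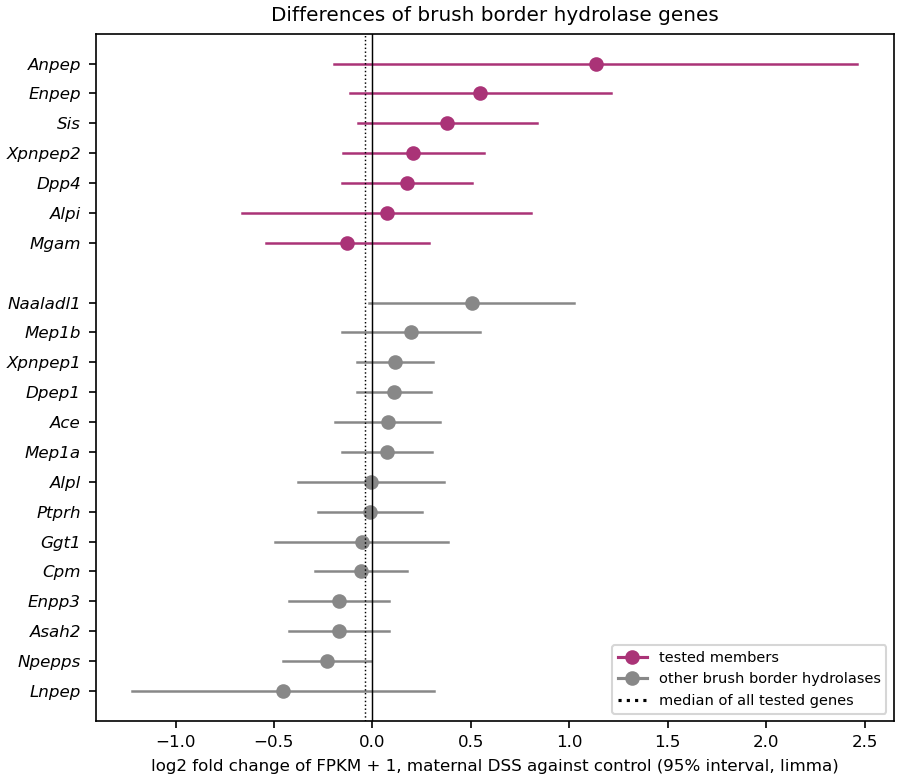
Log2 fold change of FPKM + 1, maternal DSS against control (horizontal), with 95% intervals from limma for the 7 tested brush border genes and 14 related hydrolase genes; the dotted line is the median of all tested genes. The interval of each of the 7 includes 0, and that of Anpep is the widest of the 7, from -0.20 to 2.46.

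Of 9 tested markers of small-intestinal enterocytes, 6 were above all controls in maternal DSS 2 and 3 but not in maternal DSS 1, as were the 4 peptidases and Sis. Whatever maternal DSS 1 measured, maternal DSS 2 and 3 exceeded all controls for 5 of 7 tested epithelial and 4 of 12 colonocyte genes. The same held for 6 of 12 macrophage and monocyte, 4 of 6 T cell and 3 of 4 Paneth cell genes. It held for 0 of 8 fibroblast, 0 of 8 pericyte and endothelial and 0 of 5 smooth muscle genes. These counts use the deposited FPKM, whose sums were largest in maternal DSS 2 and 3. Some margins were small, such as 628.5 FPKM for Epcam in maternal DSS 2 beside 626.4 FPKM in control 1. The share over all tested genes was not counted, nor were the counts repeated after rescaling, so no contrast between cell types is drawn from them. The summed level over the 11 listed small-intestinal genes in the table came to 246, 204 and 260 FPKM in the control and 227, 401 and 436 FPKM in the maternal DSS libraries. All 9 tested markers had positive log2 fold changes (7 after TPM rescaling), 1 with an unadjusted p under 0.05, and 1 of the 11 was under an FPKM of 1 in every library. The gene with that p was Slc10a2, the ileal bile acid transporter gene (log2 fold change 0.58, SE 0.19), and for the most abundant ones the log2 fold change was 0.35 (Clec2h, SE 0.22) or 0.07 (Slc5a1, SE 0.11). Apoa1 and Fabp6, named after their values were seen, encode an apolipoprotein of lipid absorption and the ileal bile acid binding protein. Apoa1 measured 6.33, 0.646 and 0.899 FPKM in the control and 0.839, 30.6 and 47.5 FPKM in the maternal DSS libraries. Fabp6 measured 14.2, 1.84 and 7.11 FPKM in the control and 2.08, 72.7 and 52.4 FPKM in the maternal DSS libraries. Control 1, the highest control for Anpep and Xpnpep2, was also the highest control for Apoa1 and Fabp6. For Enpep, Sis and Dpp4 the highest control was control 3 (8.4, 7.95 and 12.9 FPKM). The part of small-intestinal transcripts in the peptidase values was not tested, and in bulk tissue more cells of a type and more RNA per cell cannot be told apart.

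Other cells can also make some of these enzymes: Anpep is made by myeloid cells, Dpp4 by T cells and Enpep by pericytes. The 12 macrophage and monocyte genes added up to 159, 186 and 271 FPKM in the control and 161, 269 and 347 FPKM in the maternal DSS libraries. The 9 T cell genes summed to 6.55 to 9.62 FPKM in controls and to 7.94, 12.7 and 11.3 FPKM in maternal DSS 1, 2 and 3, and 3 of the 9 were under an FPKM of 1 in every library. The 8 pericyte and endothelial genes summed to 113 to 124 FPKM in controls and 111 to 120 FPKM in maternal DSS libraries. The 8 fibroblast genes summed to 961 to 1255 and 1030 to 1290 FPKM, and the 5 smooth muscle genes to 2166 to 2252 and 1814 to 2235 FPKM. The 5 Paneth cell genes in the table summed to 30.8 to 50.8 FPKM in controls and to 61.8, 79.9 and 70.4 FPKM in maternal DSS 1, 2 and 3. Of these maternal DSS sums Ang4 alone made up 56.6, 52 and 26.1 FPKM. In the same libraries Itln1 measured 0.998, 7.3 and 11.35 FPKM and Mmp7 1.05, 3.125 and 3.44 FPKM, beside at most 1.71 and 1.36 FPKM in controls. Cela1, at 56.9 to 124 FPKM, was the 1 pancreatic acinar gene of 7 listed that was analysed. Epithelial genes (7) summed to 5966 to 6139 FPKM in controls and 5874, 6905 and 7048 FPKM in maternal DSS 1, 2 and 3, and colonocyte genes (12) to 8584 to 9700 and 9755 to 12400 FPKM. Marker genes with an unadjusted p under 0.05 were Trbc2 of T cells (log2 fold change 0.40), Itln1 and Mmp7 of Paneth cells (1.65 and 0.85) and Krt20, Slc9a3 and Scnn1a of colonocytes (0.22, 0.66 and -0.25). Of these markers, Trbc2, Krt20 and Slc9a3 no longer reached that level after TPM rescaling, nor did Scnn1a after median-ratio rescaling. The most abundant macrophage genes, Lyz2, C1qc and C1qa, had log2 fold changes of 0.33, 0.33 and 0.26. Those of epithelium, Krt8, Lgals4 and Krt19, had 0.14, 0.19 and 0.11. Among the other most abundant markers, log2 fold changes were 0.06 and 0.15 for Lck and Cd4 of T cells, 0.47 for Ang4 of Paneth cells and 0.06 for Cela1. They were -0.08, 0.02 and -0.07 for the fibroblast genes Col3a1, Dcn and Col1a2, 0.0046, -0.04 and -0.19 for the vessel genes Rgs5, Pecam1 and Cdh5, and -0.07, -0.10 and -0.09 for the smooth muscle genes Tagln, Acta2 and Cnn1. TPM rescaling turned the signs of Lck, Cela1, Dcn and Rgs5, and median-ratio rescaling that of Pecam1. The part of these cells in the results was not tested.

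**Figure D4:**
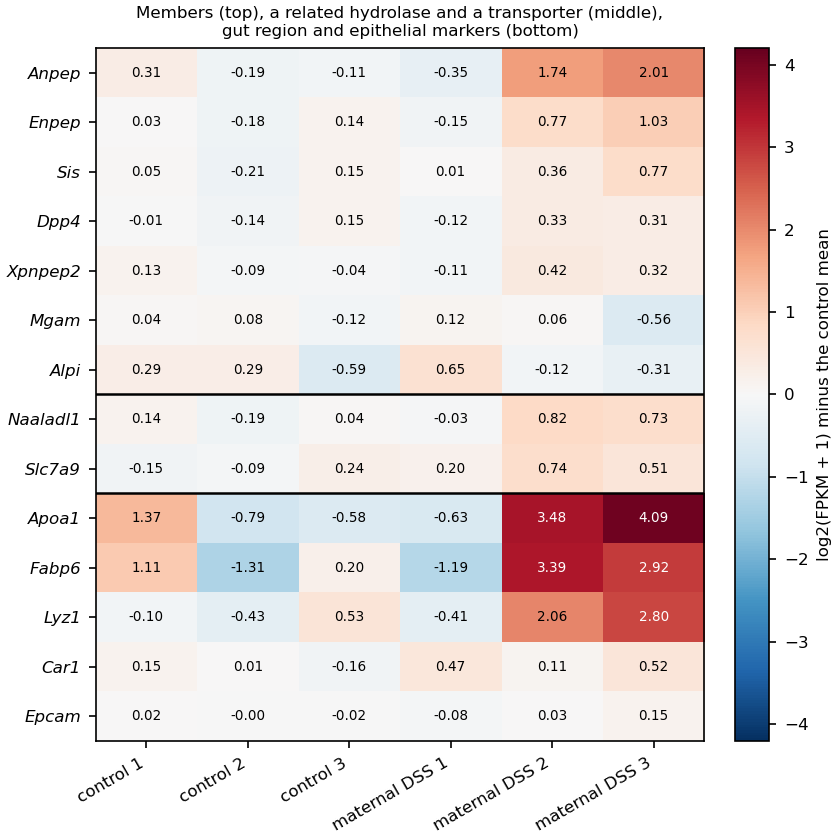
Log2(FPKM + 1) minus the control mean (colour and printed value) in each of the 6 libraries (columns) for the 7 tested brush border genes, 2 related absorptive genes and 5 marker genes (rows), the latter 7 picked after their values were seen. Anpep reads 1.74 and 2.01 and Apoa1 3.48 and 4.09 in maternal DSS 2 and 3, where Mgam reads 0.06 and -0.56.

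Intestinal alkaline phosphatase (Alpi, chromosome 1, 87098002 to 87101606) removes phosphate from bacterial lipopolysaccharide and from nucleotides. Alpi measured 22.8, 22.8 and 11.9 FPKM in the control and 29.5, 16.9 and 14.7 FPKM in the maternal DSS libraries. The 3 lowest libraries were control 3 and maternal DSS 2 and 3, so the split crossed the groups (limma: log2 fold change 0.07 ± 0.31 SE, 95% interval -0.66 to 0.81, adjusted p = 0.94). Its sign turned to -0.22 without either control 3 or maternal DSS 1, and to -0.034 after rescaling to TPM. The same 3 libraries were the highest for Reg3g, an antibacterial lectin gene named after its values were seen, with 145 FPKM for control 3, 332 for maternal DSS 2 and 382 for maternal DSS 3. The other three libraries had 19 to 56.8 FPKM. Alpi shares 82.8% and 82.3% of aligned transcript bases with its neighbours Akp3 and Alppl2. Whether any reads were assigned to the wrong gene among them was not tested. Alppl2 had at most 0.152 FPKM. No expression value of Akp3 was used here, so the values of Alpi cannot be set against those of this neighbour.

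Across related genes outside the 9, 72 of 84 listed genes in 6 lists were tested, and 12 had an unadjusted p under 0.05 (8 higher and 4 lower, beside 2.42% higher and 5.41% lower over all tested genes). None passed the adjusted threshold. The lists were chosen with earlier results of these data known, so the shares over all tested genes are not a neutral benchmark for them. In limma an unadjusted p under 0.05 was reached by 8 of the 72 after TPM rescaling and by 11 after median-ratio rescaling. Of 15 tested other hydrolases 1 was higher and 1 lower at that level, with a median log2 fold change of -0.01. The mainly cytosolic aminopeptidase gene Npepps was the lower one (limma: log2 fold change -0.23, SE 0.09), and it no longer reached that level after median-ratio rescaling. Mep1a, the meprin A metalloprotease subunit and most abundant of the list, stood at 0.07 on the same log2 scale (SE 0.10), and at -0.04 after TPM rescaling. Naaladl1, a dipeptidase-like membrane peptidase gene named after its values were seen, measured 18.4, 14.4 and 17.1 FPKM in the control and 16.1, 30 and 28.1 FPKM in the maternal DSS libraries, with maternal DSS 2 and 3 above all controls and maternal DSS 1 among them.

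Of 10 tested transporters for the released sugars, amino acids and peptides, 1 was higher at an unadjusted p under 0.05 and the median log2 fold change was 0.03. That gene was Slc7a9, the light subunit of the basic amino acid and cystine transporter, with 5.43 ± 0.979 FPKM in controls and 8.01 ± 1.66 FPKM in maternal DSS libraries (mean ± SD, n = 3 libraries; log2 fold change 0.48, SE 0.16). The glucose transporter gene Slc5a1 and the peptide transporter gene Slc15a1 had log2 fold changes of 0.07 and -0.04, and TPM rescaling turned the former to -0.04 and median-ratio rescaling the latter to 0.0088. Slc6a19, a neutral amino acid transporter gene, was named after its values were seen and was under the filter. It measured 0.81, 0.62 and 0.74 FPKM in the control and 0.81, 3.1 and 2.76 FPKM in the maternal DSS libraries.

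Of 15 tested genes of microvillus structure, 14 had positive log2 fold changes with a median of 0.09. After TPM rescaling 5 of the 15 were positive and the median was -0.02, so this direction depended on the scaling, while the median lay 0.13 and 0.12 above that of all genes on the respective scales. On the deposited scale 2 reached an unadjusted p under 0.05. The microvillus membrane protein gene Tmigd1 had 68.4 ± 7.91 FPKM in controls and 99.2 ± 15 FPKM in maternal DSS libraries (log2 fold change 0.53, SE 0.13), and the actin regulator gene Baiap2l1 had a log2 fold change of 0.18 (SE 0.07), which after TPM rescaling was 0.076 and no longer reached that level. The protocadherin gene Cdhr5, the most abundant of the list, had 0.11 (SE 0.10) and -0.0018 after TPM rescaling.

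Among 13 tested transcription factors of the enterocyte programme, 2 were higher and 2 lower at an unadjusted p under 0.05, and the median log2 fold change was -0.05. Prdm1, which represses the adult programme before weaning in mouse intestine and also marks plasma cells, measured 1.32, 1.31 and 1.13 FPKM in the control and 2.42, 2.03 and 1.61 FPKM in the maternal DSS libraries (limma: log2 fold change 0.41 ± 0.12 SE, adjusted p = 0.62). Elf3, an epithelial ETS factor gene, had 151 ± 5.62 FPKM in controls and 122 ± 5.61 FPKM in maternal DSS libraries (log2 fold change -0.31, SE 0.08), and the log2 fold change of Maf was 0.29 (SE 0.10). Of the 13 factors 3 had groups that did not overlap with maternal DSS higher and 2 with it lower, beside 4.92% and 9.14% of all tested genes. Prdm1, Elf3 and Maf were among these factors. After TPM rescaling 0 factors were higher and 2 lower at an unadjusted p under 0.05, since Prdm1 and Maf no longer reached it. Cdx2, whose product binds the promoters of Sis and Lct and which was named for that role, had 59.8 ± 3.6 FPKM in controls and 59.9 ± 6.74 FPKM in maternal DSS libraries.

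No tested gene of the weaning lists passed the adjusted threshold. Of 15 tested suckling genes 0 were higher and 1 lower at an unadjusted p under 0.05, with a median log2 fold change of 0.05 that turned to -0.05 after TPM rescaling. That gene was Ass1, the arginine synthesis enzyme active in suckling gut, with 20.2 ± 0.849 FPKM in controls and 17.2 ± 1.12 FPKM in maternal DSS libraries (log2 fold change -0.22, SE 0.08), and it no longer reached that level after median-ratio rescaling. The lysosomal protease gene Ctsb showed a log2 fold change of 0.07, whose sign turned after TPM rescaling. Of 8 tested genes of the adult list, Sis and Mgam included, 3 were higher at that level (2.42% over all tested genes), with a median of 0.49. The list also holds the Paneth cell marker Lyz1 and the lectin gene Reg3g, named after their values were seen. Their log2 fold changes, 1.483 and 1.725, were the largest of the list and raise its median. Among the 3 higher genes were the arginase gene Arg2 (log2 fold change 0.30, SE 0.12, not at that level after TPM rescaling) and Mttp, the triglyceride transfer protein gene of chylomicron assembly (log2 fold change 0.60, SE 0.24). Mttp measured 1.08, 0.806 and 0.894 FPKM in the control and 0.932, 2.74 and 2.46 FPKM in the maternal DSS libraries, again with maternal DSS 1 inside the control range.

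Profiles over the 6 libraries were compared by the root mean square difference of log2(FPKM + 1), each centred on its own mean. The closest tested genes to Sis were Prap1 (0.05), Clec2h (0.06) and the ribosomal protein genes Rpl35 (0.06), Rpl22l1 (0.07) and Rpl34 (0.07), beside a range of 0.98 for Sis itself. The closest to Anpep were Iglc2 (0.25), Ccl25 (0.32), Clca4b (0.32), Iglj2 (0.33) and Lgals2 (0.33), beside a range of 2.36. Lct spans only 0.08 on this scale, so the genes nearest to it (Tufm, Pabpc1, Ap2m1, Ogfr and Dock11) are simply genes with little spread.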

How the data were processed

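Total RNA of colon was turned into stranded mRNA libraries with a TruSeq kit (per the labels). The deposited table holds the authors' FPKM per gene and library. The tools listed in the submitters' processing notes, with no role given, are Trimmomatic 0.38, FastQC 0.11.7, StringTie 2.1.3b, HISAT2 2.1.0 and DESeq2 (no version), on mm10; the annotation was not given in the sources used. Read depth was not recovered from the FPKM values, so counting intervals are left out. FPKM is relative to a library's own total, so a few abundant RNAs can shift many genes.

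All 6 columns were used. Genes at or above an FPKM of 1 in 3 or more libraries (13594) were fitted as log2(FPKM + 1) with limma 3.58.1 in R 4.3.3 (mean-variance trend, group alone), with Benjamini-Hochberg adjustment over all of them and a threshold of 0.05. This scale understates changes of low genes. Intervals are moderated 95% intervals. The lactase to sucrase-isomaltase ratio was tested by two-sided exact permutation over 20 assignments. The script was tested on simulated data. The members and gene lists were chosen with earlier results of these data known. From each list outside the 9 genes, cell markers included, the text names genes with an unadjusted p under 0.05 and, where fewer than 3, the most abundant up to 3; for Lct, Sis and Anpep it names the 5 closest profiles. A few genes that this rule names are not reported here. Summed marker levels use every listed gene in the table. Alternatives were other pseudocounts, filters, scalings, array weights, a replicate block and leaving out each library. Promoters come from RefSeq, transcript identities from GENCODE M21 by local alignment with Biopython 1.88.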

Additional observations from a re-analysis of the deposited data

How the results depend on the processing

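Over 125 values of the 9 genes and the ratio under alternatives, 110 kept their direction and side of the threshold or moved by less than the spread, 6 reversed, 6 passed the threshold and 3 moved. Reversals were Mgam without maternal DSS 3 (0.088), Alpi after TPM scaling (-0.034), with array weights (-0.31), without control 3 (-0.22) and without maternal DSS 1 (-0.22), and the Lct to Sis ratio with no pseudocount (0.44, chosen after seeing the data). With array weights, which ran from 0.249 for maternal DSS 1 to 5.47 for maternal DSS 2, 4933 genes passed the adjusted threshold and 6784 the unadjusted one, and log2 fold changes were 0.44 for Sis, 1.67 for Anpep, 0.81 for Enpep, 0.37 for Dpp4 and 0.39 for Xpnpep2, each past the adjusted threshold; the cause was not tested. Leaving out 1 library gave 0 to 12 genes at the adjusted threshold, 401 to 3368 at the unadjusted one and 5 to 19 of the related genes (35 with array weights), and log2 fold changes of 0.70 to 1.88 for Anpep, 0.31 to 0.90 for Enpep, 0.18 to 0.57 for Sis, -0.25 to 0.088 for Mgam, -0.22 to 0.26 for Alpi and -0.54 to -0.16 for the ratio. Pseudocounts of 0.1 and 0.5 gave 0.61 and 0.30 for Treh, and 0.1 gave 0.23 for Lct. The filter at an FPKM of 5 left 677 genes at the unadjusted threshold, with fewer genes tested. TPM scaling shifted the median of all genes by -0.11 on the log2 scale.

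Same-numbered libraries did not deviate together in every pair (correlations 0.28, -0.38 and 0.40), and correlations of differently numbered pairs ran from -0.54 to 0.51. With 3 libraries per group this comparison could not tell whether same-numbered libraries were paired. The replicate block gave 1678 genes at the unadjusted threshold and 0 at the adjusted one, left all 7 tested genes short of the adjusted threshold, brought 2 of the 7 under an unadjusted p of 0.05 in limma (Sis and Enpep), where 0 were without it, and gave p = 0.5 for the ratio in an exact sign-flip test. Samples in groups of 3 cannot be screened for single outlying values, and low FPKM limits Lct and Treh.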
